A study of Mus musculus with 8 samples.

Results

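The genes described here are Dppa2, the gene of developmental pluripotency associated 2, and 9 further genes of germ cells or pluripotent cells: Dppa4, Dppa3, Dazl, Ddx4, Mael, Pou5f1, Nanog, Sycp3 and Sall4. They were chosen by name, because Dppa2 was already known to be high in Cre Recurred cells in these data, and every probe set that the array annotation gives to 1 of these symbols was taken. All 10 genes had a probe set, 7 of them 1 and 3 of them 2, which made 13 probe sets of 45037 and 10 genes of 18193. The high signal of Dppa2 in Cre Recurred cells therefore chose the set and is described without a test, whereas the other 9 genes were tested in each comparison.

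The samples were mouse adult fibroblasts (MAFs) from the peritoneal fascia of mice with floxed Rb alleles, profiled on 8 arrays as 4 populations of 2 arrays. In Cre Recurred cells, adenoviral GFP-Cre had removed an exon of Rb, and the cells had grown back after 24 h of cisplatin (CDDP). Cre Naïve cells had the same deletion and no CDDP. GFP Recurred cells had received adenoviral GFP and 24 h of CDDP with regrowth, and GFP Naïve cells had adenoviral GFP and no CDDP. All 4 populations, controls included, carried LXSN-p53DD, a retrovirus for a dominant-negative truncated p53, and each was a mixed population of infected cells rather than a clone. Both arrays of a population are labelled biological replicates, and the methods describe populations generated independently. The p values therefore rest on the spread between replicates, pooled over all 4 populations, and not on that of the compared populations alone.

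Dppa2 and Dppa4 are neighbouring, related genes for chromatin proteins with a SAP domain, a DNA-binding fold. Both are known from the early embryo, embryonic stem cells and germ cells, where they act as a pair, and in mouse embryonic stem cells they activate genes of the 2-cell stage such as the Zscan4 cluster. Germline genes are normally silent in body cells such as fibroblasts, where promoter DNA methylation and a Polycomb complex that contains E2F6, PCGF6, MGA and MAX help to keep them off. MAX and MGA bind the E-box CACGTG, and E2F proteins bind variants of TTTCGCGC, TTTGGCGC and TTCCCGCC.

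Promoter windows from RefSeq (build GRCm38.p6, 250 bases before to 50 bases after the transcript start, 5′ to 3′ on the gene's strand) held 6 of the 10 genes. Of the 3 windows shown next, those of Ddx4 and Stag3 belong to germline genes that were lower in Cre Recurred cells at the study's thresholds in at least 1 comparison, and that of Sycp3, with the same E-box, belongs to a gene that passed no test. Stag3 is the meiotic cohesin subunit of the meiosis list described later, and its window was added after its values were seen. Capitals mark matches to the 4 motifs on either strand.
Ddx4, chr13:112652261-112652560, minus strand: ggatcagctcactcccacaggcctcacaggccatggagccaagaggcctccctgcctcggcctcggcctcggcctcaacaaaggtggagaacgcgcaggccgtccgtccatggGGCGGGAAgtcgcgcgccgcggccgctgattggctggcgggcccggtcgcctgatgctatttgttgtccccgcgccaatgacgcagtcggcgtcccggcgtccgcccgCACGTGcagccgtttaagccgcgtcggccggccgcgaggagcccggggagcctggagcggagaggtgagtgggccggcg
Stag3, chr5:138280259-138280558, plus strand: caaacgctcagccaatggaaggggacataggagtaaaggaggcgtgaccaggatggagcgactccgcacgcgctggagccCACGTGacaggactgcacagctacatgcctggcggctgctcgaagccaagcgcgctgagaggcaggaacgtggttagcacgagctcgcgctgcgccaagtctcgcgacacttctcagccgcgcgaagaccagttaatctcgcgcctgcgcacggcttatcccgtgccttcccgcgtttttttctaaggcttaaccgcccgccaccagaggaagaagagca
Sycp3, chr10:88459337-88459636, plus strand: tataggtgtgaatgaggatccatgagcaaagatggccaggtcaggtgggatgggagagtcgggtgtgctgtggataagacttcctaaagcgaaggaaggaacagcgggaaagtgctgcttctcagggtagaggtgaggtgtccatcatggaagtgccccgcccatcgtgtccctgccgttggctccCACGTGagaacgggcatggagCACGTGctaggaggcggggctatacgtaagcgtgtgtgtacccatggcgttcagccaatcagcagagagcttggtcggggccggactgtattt

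The Ddx4 window held 38 CpG dinucleotides with a GC content of 72.0%, and 4.95% of the 32851 windows in the table held as many CpGs. It had 1 CACGTG and 1 TTCCCGCC, the second on the opposite strand. The Stag3 window held 30 CpGs and 1 CACGTG, and the Sycp3 window held 15 CpGs and 2 matches to CACGTG. Of the other members, Mael had 24 CpGs and 1 CACGTG, Dazl had 28 CpGs and no match, and the windows of Nanog and Pou5f1 had 4 to 11 CpGs and no match. The median window held 7 CpGs. CACGTG reads the same on both strands and was counted once per place. It was found in 7.15% of all windows, TTCCCGCC in 2.19%, TTTGGCGC in 0.514% and TTTCGCGC in 0.323%, with no overlap among the matches printed. These matches describe letters in a window, since neither binding nor methylation was measured on these arrays.

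Signals are log2 values made with the Robust Multichip Average (RMA), so a difference of 1 is a doubling, and levels of different probe sets are not comparable with each other. The deposited arrays had medians between 5.37 and 5.41. Rb1 checked the labels. Its brighter probe set read 4.98 and 5.45 in Cre Recurred cells, 6.21 and 5.72 in Cre Naïve cells, 8.21 and 8.78 in GFP Recurred cells, and 7.98 and 8.07 in GFP Naïve cells, so the Cre arrays were below the GFP arrays throughout; whether its probes lie in the removed exon was not examined. Its dim probe set stayed between 3.52 and 4.47. Cre Naïve replicate 2 stood apart from its partner: it correlated most closely over all probe sets with Cre Recurred replicate 2 (r = 0.9917) and less closely with Cre Naïve replicate 1 (r = 0.9855). The GFP Naïve arrays were also each closer to an array of another population than to each other (r = 0.9865), replicate 1 to Cre Naïve replicate 1 (r = 0.9941). In Cre Recurred against Cre Naïve cells, 524 probe sets passed the study's thresholds (1.5-fold and an adjusted p under 0.25) on all 8 arrays. More passed without Cre Naïve replicate 2 or without Cre Recurred replicate 2, and fewer without any other single array. For several named genes, the log2 difference in that comparison is given with and without Cre Naïve replicate 2. All 11 fibroblast markers had mean signals above the median probe set. Against GFP Recurred cells, Fap (-2.39, limma, adjusted p = 0.15), Dcn (-1.60, adjusted p = 0.15) and Prrx1 (-1.05, adjusted p = 0.13) were lower in Cre Recurred cells at the study's thresholds. Thy1 was higher there (0.91, adjusted p = 0.14), and no other fibroblast marker passed in that comparison, beside 11.4% of all genes.

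Dppa2 was high in Cre Recurred cells only, by both of its probe sets. Probe set 1453223_s_at, whose suffix marks probes shared between transcripts, read 6.19 and 6.55 in Cre Recurred cells, 3.04 and 3.69 in Cre Naïve cells, 3.09 and 3.29 in GFP Recurred cells, and 2.99 and 3.43 in GFP Naïve cells. Probe set 1429654_at read 6.05 and 5.75 in Cre Recurred cells, 3.18 and 3.58 in Cre Naïve cells, 3.49 and 3.34 in GFP Recurred cells, and 2.89 and 3.26 in GFP Naïve cells. On either probe set both Cre Recurred arrays lay above all 6 other arrays, whose signals overlapped across the remaining populations except where stated.

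The first Dppa2 probe set averaged 6.37 ± 0.26 in Cre Recurred cells and 3.36 ± 0.46 in Cre Naïve cells (SD, n = 2 each), a log2 difference of 3.01 or 8.03-fold. Against GFP Recurred cells, at 3.19 ± 0.14, the difference was 3.18 (9.04-fold), and against GFP Naïve cells, at 3.21 ± 0.32, it was 3.16 (8.93-fold). The second probe set, at 5.90 ± 0.21 in Cre Recurred cells, gave 2.52 (5.72-fold) against Cre Naïve cells, 2.48 (5.59-fold) against GFP Recurred cells and 2.82 (7.06-fold) against GFP Naïve cells. The difference between recurrence in Cre cells and recurrence in GFP cells was 3.02 on the first probe set and 2.18 on the second. These 3 comparisons share the Cre Recurred arrays, and their values are descriptions because they chose the gene. Under every alternative processing that kept the probe sets, the Dppa2 differences in comparisons with Cre Recurred cells lay between 2.31 and 3.38.

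Outside Cre Recurred cells, Dppa2 could be tested, and no difference passed a threshold. In GFP Recurred against GFP Naïve cells, the log2 difference was -0.02 (limma, adjusted p = 0.99) on the first probe set and 0.34 (adjusted p = 0.88) on the second, where the GFP Recurred arrays were both above the GFP Naïve arrays. In Cre Naïve against GFP Naïve cells, it was 0.15 on the first probe set and 0.30 on the second, with adjusted p = 1.0 for both. The standard errors of these differences were 0.26 on the first probe set and 0.20 on the second.

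**Figure D1:**
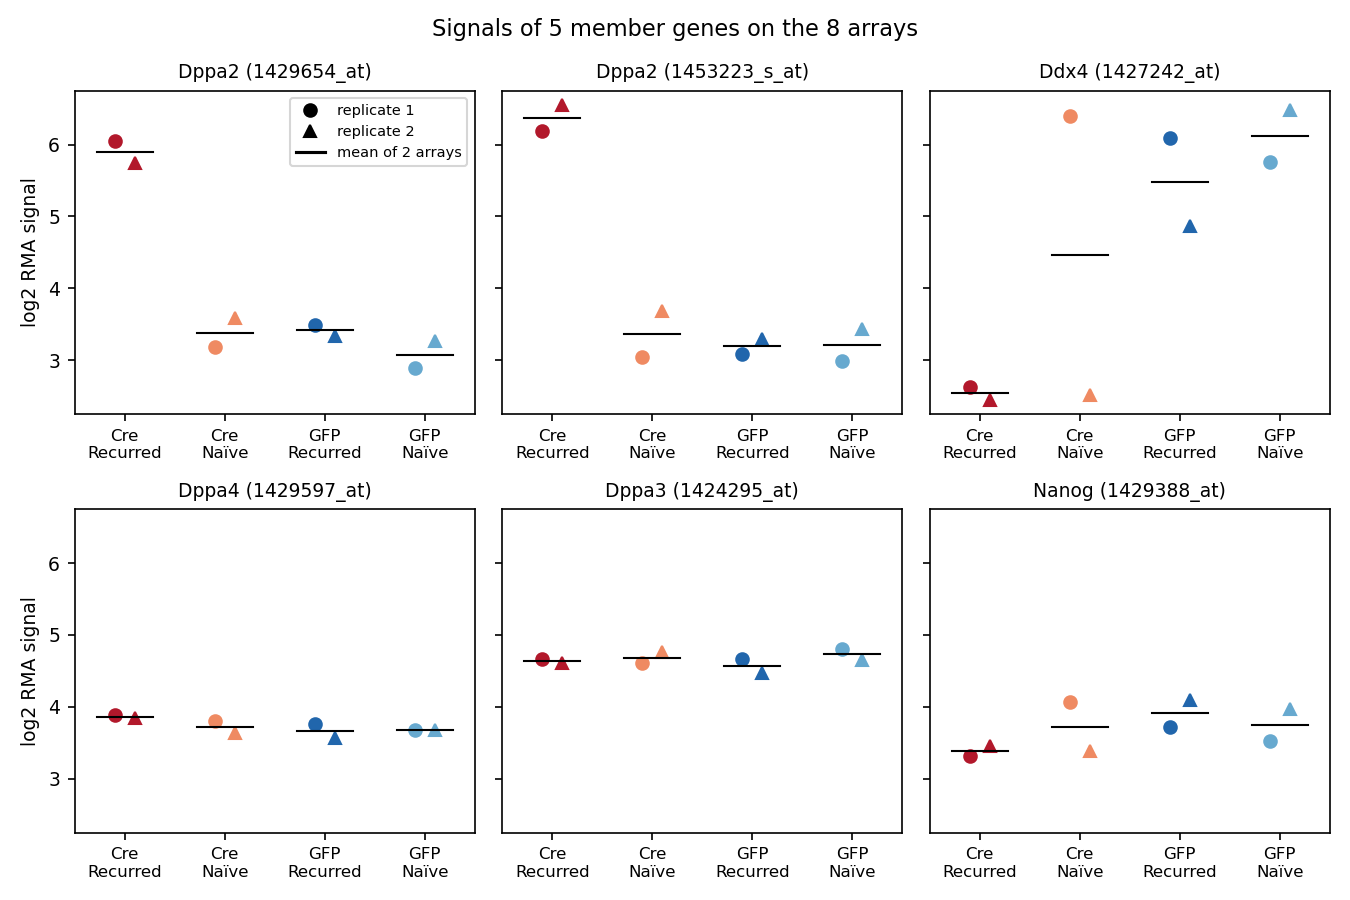
Log2 RMA signal (vertical axis, the same in every panel) of 5 genes, Dppa2 with both probe sets, on each of the 8 arrays; circles are replicate 1, triangles replicate 2 and black lines the mean of 2 arrays. Dppa2 is at 5.75 to 6.55 in Cre Recurred cells and at 2.89 to 3.69 elsewhere, Ddx4 is at 2.63 and 2.45 in Cre Recurred cells and at 2.52 in Cre Naïve replicate 2, and Dppa4, Dppa3 and Nanog move little.

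Dppa4, the partner and direct neighbour of Dppa2 on chromosome 16, showed no comparable difference. Dppa4 read 3.88 and 3.84 in Cre Recurred cells, 3.80 and 3.63 in Cre Naïve cells, 3.76 and 3.57 in GFP Recurred cells, and 3.67 and 3.67 in GFP Naïve cells. Both Cre Recurred arrays were the highest of the 8, but by small margins, and the whole range was 0.32. The log2 difference was 0.15 ± 0.13 (SE) against Cre Naïve cells (adjusted p = 0.66), 0.20 against GFP Recurred cells (adjusted p = 0.50) and 0.19 against GFP Naïve cells (adjusted p = 0.55). Dppa3 (Stella), which protects maternal methylation in the zygote, ranged from 4.47 to 4.81 over the 8 arrays. Of the other genes with the Dppa name, Dppa5a, a stem cell RNA-binding protein, read 5.06 and 4.74 in Cre Recurred cells. It read 4.84 and 5.29 in Cre Naïve cells, a log2 difference of -0.16 (limma, adjusted p = 0.76).

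The 20 measured genes nearest to Dppa2 in gene order, 10 on each side, were also close to level in the naïve comparison. In Cre Recurred against Cre Naïve cells, 14 of the 20 had positive log2 differences, the median was 0.07 beside 0.05 over all genes, and the range was -0.54 (Phldb2) to 0.30. None of the 20 passed the study's thresholds of 1.5-fold and an adjusted p under 0.25 in limma (smallest adjusted p = 0.45), which 1.65% of all genes passed by their brightest probe set. Gm5485, the nearest measured gene on the side away from Dppa4, read 3.28 and 2.93 in Cre Recurred cells and 2.83 and 3.08 in Cre Naïve cells. Morc1, the gene after it, encodes a protein of transposon silencing in male germ cells, and its signals stayed between 2.54 and 2.97 on all arrays.

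Against GFP Recurred cells, 1 of the 20 neighbours passed the study's thresholds, beside 11.4% of all genes. This was Nectin3, a cell adhesion molecule, at 9.08 and 8.71 in Cre Recurred cells and 7.86 and 8.09 in GFP Recurred cells (log2 difference 0.92, adjusted p = 0.11). The Cre Naïve arrays, at 8.67 and 9.17, and the GFP Naïve arrays, at 8.96 and 8.65, were as high as the Cre Recurred arrays. Dppa2 was thus the 1 gene of this stretch with a difference of over 1 in the comparisons with Cre Naïve or GFP Recurred cells.

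Ddx4 (Vasa), an RNA helicase of germ cells on chromosome 13, had the opposite pattern to Dppa2 in Cre Recurred cells, with a large spread elsewhere. It read 2.63 and 2.45 in Cre Recurred cells, 6.40 and 2.52 in Cre Naïve cells, 6.09 and 4.87 in GFP Recurred cells, and 5.76 and 6.48 in GFP Naïve cells. Both Cre Recurred arrays were low, and Cre Naïve replicate 2 was as low as they were, while the other 5 arrays were high. The population means were 2.54 ± 0.13 in Cre Recurred cells, 4.46 ± 2.74 in Cre Naïve cells, 5.48 ± 0.86 in GFP Recurred cells and 6.12 ± 0.51 in GFP Naïve cells (SD, n = 2 each).

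On the RMA scale, Ddx4 was 7.66-fold lower in Cre Recurred than in GFP Recurred cells, with a log2 difference of -2.94 ± 1.10 (SE) that passed the study's thresholds (limma, adjusted p = 0.24) but not a stricter adjusted p under 0.05. Against GFP Naïve cells it was 12-fold lower (log2 difference -3.58), with arrays that did not overlap and an adjusted p of 0.27, outside both thresholds. Against Cre Naïve cells the log2 difference was -1.92 (adjusted p = 0.52), and the arrays overlapped. In GFP Recurred against GFP Naïve cells it was -0.64 (adjusted p = 0.95), in Cre Naïve against GFP Naïve cells it was -1.66 (adjusted p = 1.0), and the interaction of RB status with recurrence was -1.28 ± 1.56 (SE, adjusted p = 0.81). The low Ddx4 signals, like those of Dppa2 outside Cre Recurred cells, are dim, and RMA compresses differences there, so these folds may understate a difference in transcript level; no detection calls were used here to set a bound.

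Single arrays decided the Ddx4 calls. Without Cre Naïve replicate 2, the log2 difference of Cre Recurred against Cre Naïve cells was -3.86 (adjusted p = 0.049) and the interaction -3.21 (adjusted p = 0.16). Without Cre Naïve replicate 1, the same comparison gave 0.02 (adjusted p = 0.99), and Cre Naïve against GFP Naïve cells gave -3.60 (adjusted p = 0.17). The call against GFP Recurred cells was lost when any array of Cre Recurred, GFP Recurred or GFP Naïve cells was left out, with adjusted p between 0.27 and 0.64, and the log2 difference then lay between -3.55 and -2.33. Against GFP Naïve cells, the log2 difference stayed at -3.58 when either Cre Naïve array was left out. The main fit pools the spread of all 4 populations, so the wide Cre Naïve spread also entered comparisons without Cre Naïve cells. With only the compared arrays in the fit, Ddx4 passed both thresholds against GFP Naïve cells (limma, adjusted p = 0.033) and GFP Recurred cells (adjusted p = 0.027).

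The remaining 8 genes, with 10 probe sets, stayed nearly level. Their ranges over the 8 arrays were 0.24 to 0.79, beside a median range of 0.56 over all probe sets, whereas the Dppa2 probe sets ranged over 3.56 and 3.16, and 1.28% of all probe sets ranged over more than 3. In 50 tests of these 10 probe sets, 5 comparisons each, the largest log2 difference was 0.53 in size and the smallest adjusted p was 0.30. Averaged over the 8 arrays, each of the 13 probe sets was below 5.4, the median over all probe sets, although Dppa2 in Cre Recurred cells and Ddx4 on 4 of the 8 arrays were above it. A small change of the 8 level genes could be missed at such dim signals.

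Among the pluripotency factors, Pou5f1 (Oct4) read 4.26 and 4.29 in Cre Recurred cells, 4.02 and 4.34 in Cre Naïve cells, 4.45 and 4.30 in GFP Recurred cells, and 4.19 and 4.34 in GFP Naïve cells. Its populations overlapped except that Cre Recurred cells were below GFP Recurred cells by 0.10 (adjusted p = 0.80). Nanog, a homeobox factor of the same network, read 3.32 and 3.45 in Cre Recurred cells, 4.06 and 3.38 in Cre Naïve cells, 3.72 and 4.10 in GFP Recurred cells, and 3.52 and 3.97 in GFP Naïve cells. The Cre Recurred arrays and Cre Naïve replicate 2 were below the other 5. The Nanog difference against GFP Recurred cells was -0.53 (adjusted p = 0.38), the largest in size of the 50. Against Cre Naïve cells the Nanog difference was -0.34, and -0.68 (adjusted p = 0.30) without Cre Naïve replicate 2, outside the thresholds either way. Sall4, a zinc finger factor of stem cells and germ cells, read 4.20 and 4.19 in Cre Recurred cells, 3.77 and 3.98 in Cre Naïve cells, 3.89 and 4.04 in GFP Recurred cells, and 3.69 and 3.89 in GFP Naïve cells on probe set 1424152_at. Both Cre Recurred arrays were the highest of the 8, yet the difference of 0.40 against GFP Naïve cells had an adjusted p of 0.30. The second Sall4 probe set did not share that order, since Cre Naïve replicate 2, at 4.15, was above the Cre Recurred arrays, at 3.84 and 3.70.

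None of the germ cell genes left passed a threshold either. Dazl, an RNA-binding protein that controls translation in germ cells, stayed between 2.84 and 3.08 on probe set 1419542_at and between 2.97 and 3.43 on 1449502_at. Mael, a protein of the piRNA pathway that silences transposons, read 2.54 and 2.32 in Cre Recurred cells, 2.45 and 2.43 in Cre Naïve cells, 2.56 and 2.62 in GFP Recurred cells, and 2.64 and 2.73 in GFP Naïve cells. Its GFP arrays were all above its Cre arrays, with log2 differences against GFP Naïve cells of -0.26 for Cre Recurred cells (adjusted p = 0.43) and -0.25 for Cre Naïve cells (adjusted p = 1.0). Sycp3, a structural protein of the synaptonemal complex of meiosis, read 2.79 and 3.16 in Cre Recurred cells and 3.31 and 3.24 in Cre Naïve cells, a log2 difference of -0.30 (adjusted p = 0.54).

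**Figure D2:**
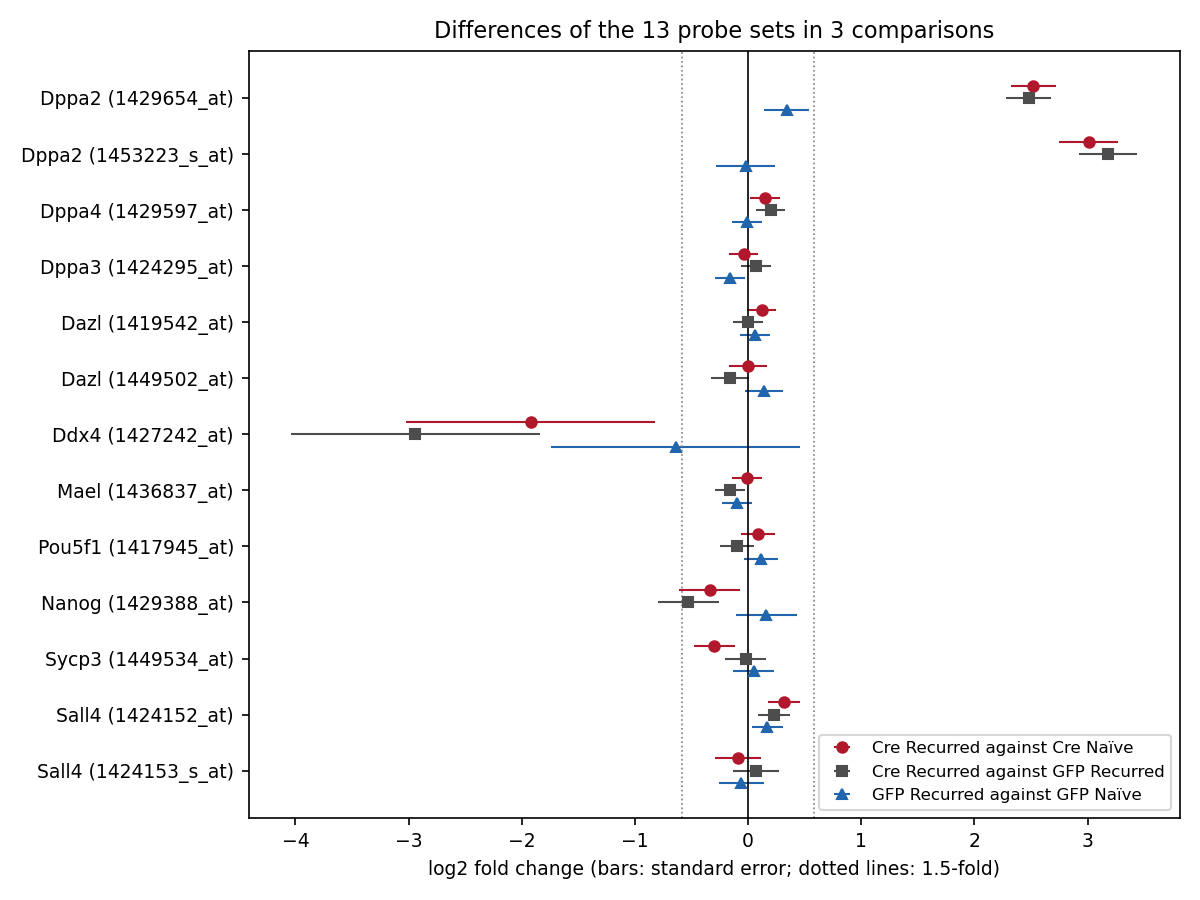
Log2 fold change (horizontal axis, points with standard error) of the 13 probe sets, 1 per row, in Cre Recurred against Cre Naïve cells, Cre Recurred against GFP Recurred cells, and GFP Recurred against GFP Naïve cells. Dppa2 lies between 2.48 and 3.18 in the Cre Recurred comparisons, Ddx4 at -1.92 and -2.94 with a standard error of 1.10, and the other 10 probe sets lie inside the dotted lines at 1.5-fold.

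Counted over the 9 tested genes, 0 of 11 probe sets passed the study's thresholds in limma in Cre Recurred against Cre Naïve cells, where 1.16% of all probe sets passed, and none had an unadjusted p under 0.05, beside 12.0% of all. None passed by a SAM-type statistic either, by which 168 of 45037 probe sets passed. The same comparison had 4 of the 11 with arrays that did not overlap, beside 43.5% of all probe sets. Against GFP Recurred cells, 1 of 11 (Ddx4) passed, beside 8.85% of all, and 6 of 11 did not overlap, beside 51.8%. Against GFP Naïve cells, 0 of 11 passed in limma, beside 3.05% of all, although 2 had an unadjusted p under 0.05, beside 13.3% of all, and 1 (Ddx4) passed by the SAM-type statistic, as did 1422 of 45037 probe sets. There 5 of 11 did not overlap, beside 44.3% of all. With Dppa2 counted, 0 of 13 passed in GFP Recurred against GFP Naïve cells, beside 0.0133% of all, and 0 of 13 in Cre Naïve against GFP Naïve cells, beside 0.0%. Both of these counts were also 0 by the SAM-type statistic and by an unadjusted p under 0.05, which 5.52% of all probe sets had in the first and 2.57% in the second. Arrays did not overlap for 2 of 13 probe sets in the first of these comparisons, beside 38.4% of all, and for 2 of 13 in the second, beside 27.3%. The interaction had 0 of 11 passing, beside 0.4% of all, and 0 with an unadjusted p under 0.05, beside 10.3%.

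Genes around Ddx4 were examined after its values were seen. Of the 20 measured genes nearest to it, 5 had positive log2 differences in Cre Recurred against Cre Naïve cells, and the median was -0.16 beside 0.05 over all genes. Against GFP Recurred cells the median was -0.12, and 4 of the 20 passed the study's thresholds, beside 11.4% of all genes, all 4 lower in Cre Recurred cells: Rab3c, Map3k1, Il6st and Pde4d. Against Cre Naïve cells, the Il6st difference was -1.16 (adjusted p = 0.30), and -1.56 without Cre Naïve replicate 2. At the stricter threshold 2 of the 20 passed against GFP Recurred cells, beside 1.1% of all genes. Il31ra, the nearest measured gene on that flank, which encodes an interleukin receptor, read 5.29 and 5.24 in Cre Recurred cells, 6.63 and 5.19 in Cre Naïve cells, 6.33 and 5.92 in GFP Recurred cells, and 5.54 and 6.86 in GFP Naïve cells, with the same low Cre Naïve array. Slc38a9, an amino acid transporter on the other side, read 6.27 and 6.49 in Cre Recurred cells and 6.99 and 6.58 in Cre Naïve cells.

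Map3k1, a kinase of stress signalling, was lower than in GFP Recurred cells at the stricter threshold, with 3.72 and 4.07 in Cre Recurred cells, 5.96 and 5.51 in Cre Naïve cells, 5.70 and 5.40 in GFP Recurred cells, and 5.08 and 5.50 in GFP Naïve cells (log2 difference -1.66, adjusted p = 0.043). Rab3c, a GTPase of vesicle release, also passed it, with 4.38 and 4.59 in Cre Recurred cells, 9.57 and 6.62 in Cre Naïve cells, 10.18 and 10.13 in GFP Recurred cells, and 8.80 and 8.59 in GFP Naïve cells (log2 difference -5.67, adjusted p = 0.043). The Map3k1 call at the study's thresholds was lost without GFP Recurred replicate 1 (adjusted p = 0.26), GFP Recurred replicate 2 (adjusted p = 0.34) or Cre Recurred replicate 1 (adjusted p = 0.26), and its stricter call also without Cre Recurred replicate 2 (adjusted p = 0.061). The Rab3c call at the study's thresholds was lost without GFP Recurred replicate 2 (adjusted p = 0.34) or Cre Recurred replicate 1 (adjusted p = 0.26). Its stricter call was also lost without GFP Recurred replicate 1 (adjusted p = 0.25), Cre Recurred replicate 2 (adjusted p = 0.077) or either GFP Naïve array (adjusted p = 0.060 each), and with a trended and robust prior (adjusted p = 0.062). Against Cre Naïve cells, the differences were -1.84 for Map3k1 (adjusted p = 0.083) and -3.61 for Rab3c (adjusted p = 0.24). Without Cre Naïve replicate 2, they were -2.06 for Map3k1 and -5.09 for Rab3c.

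**Figure D3:**
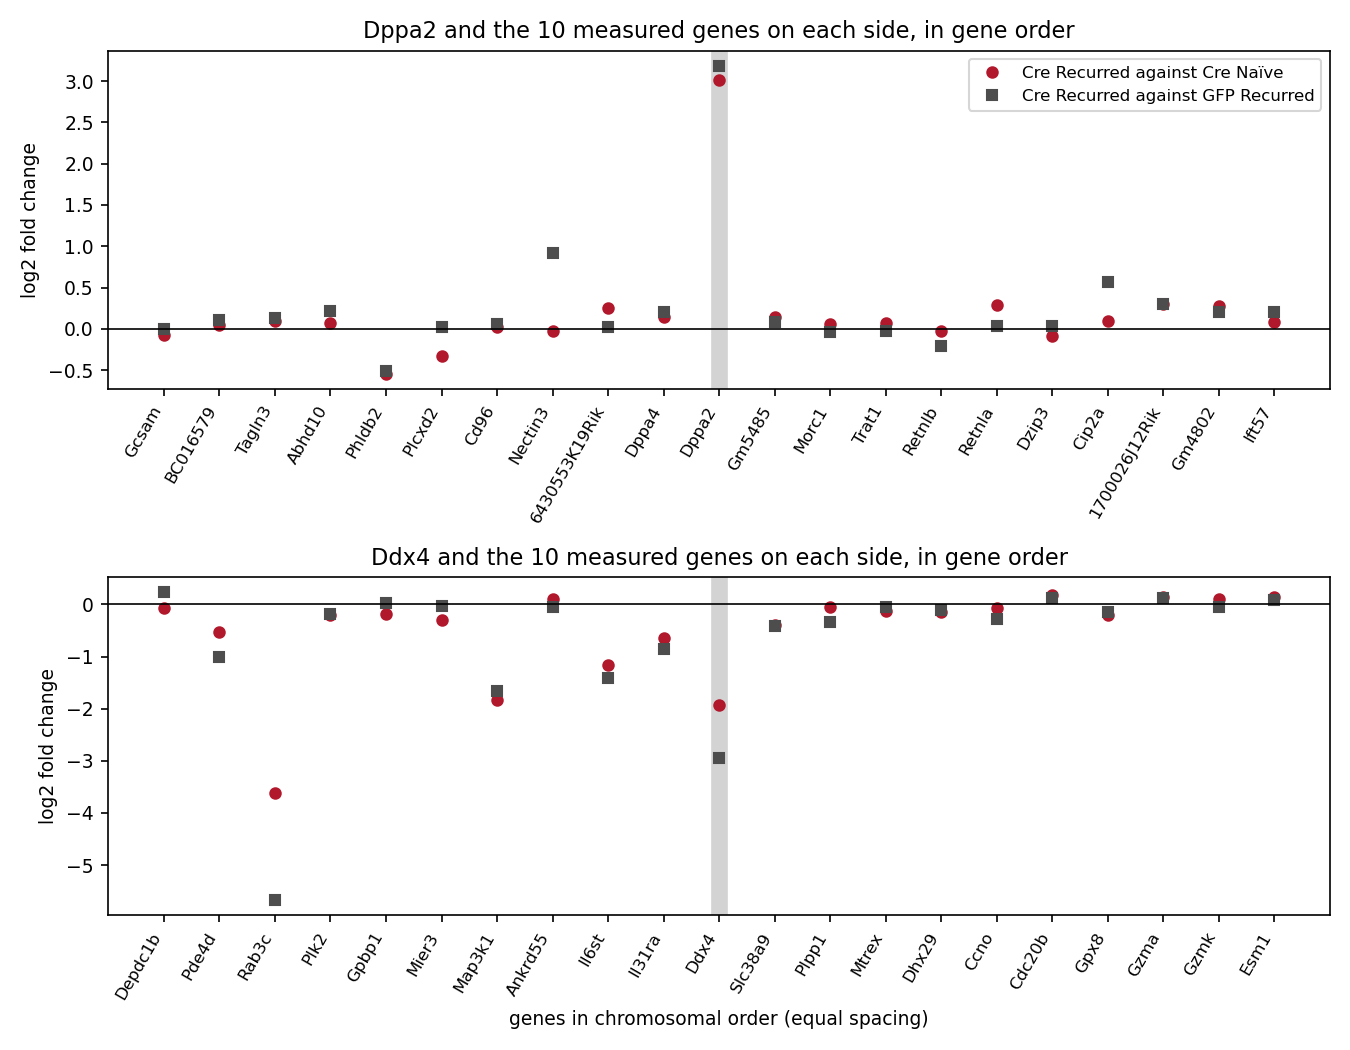
Log2 fold change (vertical axis) of Dppa2 (top, chromosome 16) and Ddx4 (bottom, chromosome 13), each on a grey bar, with the 10 measured genes on either side in chromosomal order at equal spacing; circles are Cre Recurred against Cre Naïve cells and squares Cre Recurred against GFP Recurred cells. Dppa2 stands alone at 3.01 and 3.18, with Dppa4 beside it at 0.15 and 0.20, while Rab3c, Map3k1, Il6st and Ddx4 all lie below -1 in both comparisons.

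Wider lists of genes for pluripotency, germ cell identity, meiosis, the 2-cell stage and the repression of germline genes were described by counts and medians, with each gene represented by its brightest probe set and Dppa2 left out. In Cre Recurred against Cre Naïve cells, the median log2 difference was 0.09 for 25 pluripotency genes, 0.11 for 35 germ cell genes, 0.08 for 33 meiosis genes, 0.12 for 15 genes of the 2-cell stage and 0.10 for 25 repressors, beside 0.05 over all genes. At the study's thresholds in limma, 0 of 25, 0 of 35, 1 of 33, 0 of 15 and 1 of 25 passed, in that order, beside 1.65% of all genes. Those with an unadjusted p under 0.05 numbered 2, 3, 4, 3 and 6, beside 12.0% of all probe sets, a share over probe sets rather than genes. Without Cre Naïve replicate 2, more genes of each list passed the study's thresholds, and so did more probe sets in all. Against GFP Recurred cells, the list genes that passed as higher numbered 2, 1, 1, 1 and 4. Those that passed as lower numbered 1, 1, 2, 0 and 0, beside 11.4% of all genes in either direction. Against GFP Naïve cells, 1, 2, 1, 0 and 0 passed as higher and 0, 0, 2, 0 and 1 as lower, beside 4.14%.

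The meiosis gene that passed was Stag3, the cohesin subunit that holds sister chromatids together in meiosis. It read 3.80 and 3.46 in Cre Recurred cells, 5.17 and 5.54 in Cre Naïve cells, 5.03 and 5.76 in GFP Recurred cells, and 4.55 and 4.64 in GFP Naïve cells. The Cre Recurred arrays were below all others, with a log2 difference of -1.73 ± 0.26 (SE) against Cre Naïve cells (adjusted p = 0.12) and -1.76 against GFP Recurred cells (adjusted p = 0.047), where it passed the stricter threshold as well. The call against Cre Naïve cells was lost without Cre Recurred replicate 1 (adjusted p = 0.57), and that against GFP Recurred cells was lost without GFP Recurred replicate 2 (adjusted p = 0.34). The stricter call of Stag3 was lost in addition without GFP Recurred replicate 1 (adjusted p = 0.13), Cre Recurred replicate 1 (adjusted p = 0.23), Cre Recurred replicate 2 (adjusted p = 0.090) or either GFP Naïve array (adjusted p = 0.063 each). Syce2, of the central element of the synaptonemal complex, read 5.32 and 6.21 in Cre Recurred cells, 8.71 and 6.99 in Cre Naïve cells, 8.12 and 8.41 in GFP Recurred cells, and 8.22 and 8.14 in GFP Naïve cells. Its difference passed the study's thresholds against GFP Recurred cells (-2.50, adjusted p = 0.086) but against Cre Naïve cells only without Cre Naïve replicate 2 (-2.95, adjusted p = 0.034, and -2.08, adjusted p = 0.29, with it). Mnd1, which assists strand exchange in recombination, was higher at the study's thresholds against GFP Recurred cells (1.13, adjusted p = 0.11). In that comparison its partner Psmc3ip had a log2 difference of 0.40 (adjusted p = 0.19), under 1.5-fold. That value was for the Psmc3ip probe set with the smallest p against Cre Naïve cells, and the brightest gave 0.33. Against Cre Naïve cells, the Mnd1 difference was 0.83 (adjusted p = 0.35), and 1.22 without Cre Naïve replicate 2.

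In the germ cell list, Rhox5, an X-linked homeobox gene, read 7.50 and 7.68 in Cre Recurred cells, 5.59 and 6.71 in Cre Naïve cells, 7.24 and 7.47 in GFP Recurred cells, and 5.23 and 6.21 in GFP Naïve cells. All 4 recurred arrays were above all 4 naïve arrays, with log2 differences of 1.44 between the Cre populations (adjusted p = 0.32) and 1.63 between the GFP populations (adjusted p = 0.86), neither of which passed a threshold. Rhox5 did pass the study's thresholds against GFP Naïve cells (1.87, adjusted p = 0.18) and, without Cre Naïve replicate 2, against Cre Naïve cells (2.00, adjusted p = 0.12). Tdrkh, a Tudor domain protein of piRNA processing, read 8.96 and 8.92 in Cre Recurred cells, 7.53 and 8.72 in Cre Naïve cells, 7.45 and 7.57 in GFP Recurred cells, and 7.80 and 7.45 in GFP Naïve cells. It passed the study's thresholds against GFP Recurred cells (1.43, adjusted p = 0.11). The Tdrkh difference against Cre Naïve cells was 0.81 (adjusted p = 0.42), and 1.41 without Cre Naïve replicate 2. Gtsf1, Zbtb16 and Tdrd7 were named by the smallest p in this list at any probe set. Against Cre Naïve cells, their log2 differences at that probe set were 0.89, 0.50 and 1.02, each with adjusted p = 0.36. By their brightest probe sets, the differences were 0.43, 0.50 and 0.33.

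Of the pluripotency genes, Mybl2, a cell cycle transcription factor, read 9.13 and 8.60 in Cre Recurred cells, 7.76 and 8.29 in Cre Naïve cells, 7.70 and 7.72 in GFP Recurred cells, and 7.68 and 7.98 in GFP Naïve cells. It passed the study's thresholds against GFP Recurred cells (1.15, adjusted p = 0.083), as did Klf5 (1.06, adjusted p = 0.12) and, in the lower direction, Dnmt3l (-1.56, adjusted p = 0.16), a cofactor of DNA methylation in germ cells. The Mybl2 difference against Cre Naïve cells was 0.84 (adjusted p = 0.31), and 1.10 without Cre Naïve replicate 2. Utf1 and Fgf4 are genes of embryonic stem cells. Against Cre Naïve cells, their log2 differences were 0.51 (adjusted p = 0.30) and 0.30 (adjusted p = 0.44). Those values came from the probe set with the smallest p, and the brightest gave 0.37 and 0.17.

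The 2-cell stage genes, which include targets of Dppa2 and Dppa4 in embryonic stem cells, held 15 measured genes of 28 listed. The listed genes of the Zscan4 cluster named above (Zscan4c, Zscan4d and Zscan4f) were not among the 15, so the counts do not cover them. Usp17la, a deubiquitinase, read 8.09 and 7.46 in Cre Recurred cells, 5.03 and 7.01 in Cre Naïve cells, 4.46 and 3.81 in GFP Recurred cells, and 6.09 and 4.86 in GFP Naïve cells. It passed the study's thresholds against GFP Recurred cells (3.64, adjusted p = 0.067) but not against Cre Naïve cells (1.75, adjusted p = 0.39), where the second Cre Naïve array lay close to the Cre Recurred arrays. Without that array the Usp17la difference was 2.74 (adjusted p = 0.13), which passed. Tdpoz1, Pramel12 and Pramel6 had log2 differences of 0.41, -0.34 and 0.32 against Cre Naïve cells, with adjusted p between 0.37 and 0.48.

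Among the repressors of germline genes, Pcgf6, a subunit of the Polycomb complex named above, read 9.99 and 9.65 in Cre Recurred cells, 9.14 and 9.20 in Cre Naïve cells, 9.05 and 9.01 in GFP Recurred cells, and 9.31 and 9.41 in GFP Naïve cells. Its difference against Cre Naïve cells was 0.65 (adjusted p = 0.25 when rounded, just inside the study's threshold; 0.68, adjusted p = 0.21, without Cre Naïve replicate 2) and against GFP Recurred cells 0.79 (adjusted p = 0.066). E2f6, the E2F of the same complex, read 7.64 and 7.47 in Cre Recurred cells, 8.19 and 8.60 in Cre Naïve cells, 7.92 and 8.10 in GFP Recurred cells, and 8.16 and 8.58 in GFP Naïve cells, so that the Cre Recurred arrays were the lowest. E2f6 passed the study's thresholds against GFP Naïve cells (-0.82, adjusted p = 0.21) but not against Cre Naïve cells (-0.84, adjusted p = 0.27). Against GFP Recurred cells, 4 of 25 repressors passed, all higher: Pcgf6, the histone methyltransferase Setdb1 (0.65, adjusted p = 0.11), and Uhrf1 (0.77, adjusted p = 0.11) and Hells (0.67, adjusted p = 0.19), which help to maintain DNA methylation. Over all genes 11.4% passed in that comparison. These calls took each gene by its brightest probe set. Against Cre Naïve cells, Hells passed the study's thresholds at its probe set with the smallest p (0.70, limma, adjusted p = 0.20). Its brightest probe set gave 0.56 there (adjusted p = 0.39) and did not pass.

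**Figure D4:**
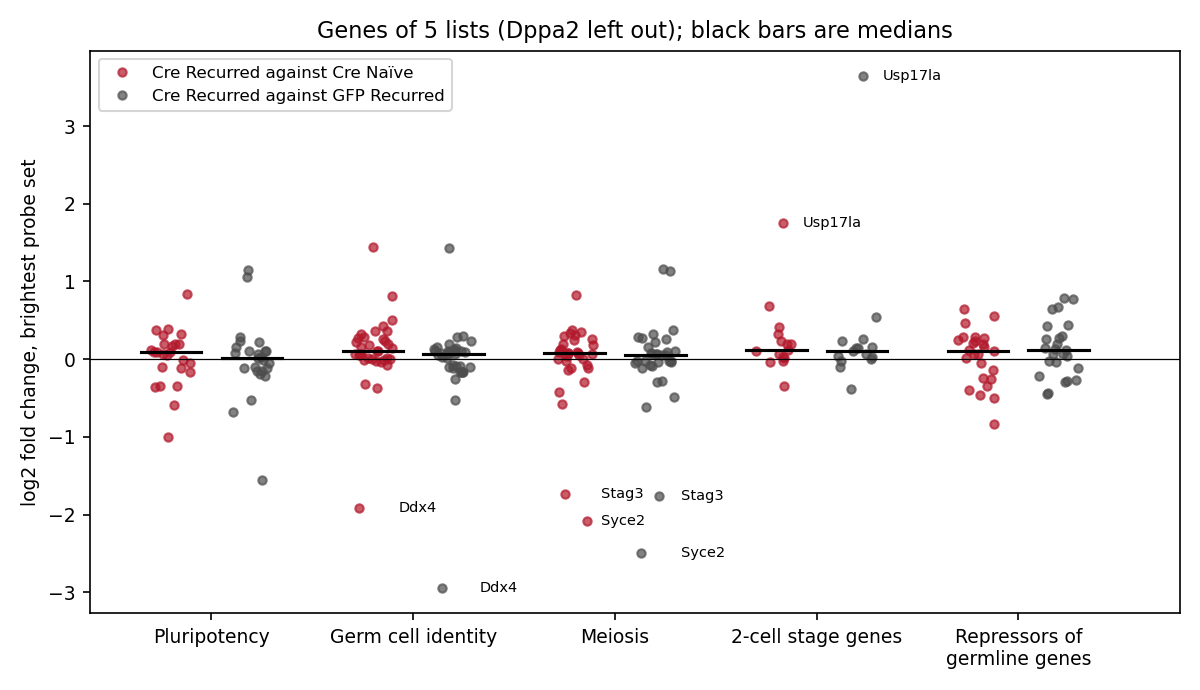
Log2 fold change (vertical axis) of the genes of 5 lists, 1 point per gene by its brightest probe set, in Cre Recurred against Cre Naïve cells (left of each pair) and against GFP Recurred cells (right); black bars are medians and Dppa2 is left out. The medians in the first comparison are 0.08 to 0.12, and genes beyond 1.7 in size, among them Ddx4, Stag3, Syce2 and Usp17la, are named.

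The genes whose signals were most like those of Dppa2 over the 8 arrays were Gnat2, Prtn3, Klhl30, Mt3 and Pmfbp1, with Pearson r between 0.972 and 0.981 among 9391 genes whose spread was at least that of the median probe set. These correlations are descriptions over 8 arrays in which 1 pair is high. Klhl30 had the widest span of the 5, with 5.14 and 5.14 in Cre Recurred cells, 3.48 and 3.88 in Cre Naïve cells, 3.54 and 3.55 in GFP Recurred cells, and 3.53 and 3.26 in GFP Naïve cells. Gnat2, a transducin subunit of cone photoreceptors, read 6.16 and 6.29 in Cre Recurred cells and 5.61 and 5.79 in Cre Naïve cells. The genes least like Dppa2 were Tshz2, 2210016F16Rik and Dnajc25, with r of -0.99, -0.987 and -0.984. Tshz2, a zinc finger homeobox gene, read 3.79 and 3.91 in Cre Recurred cells, 8.83 and 7.41 in Cre Naïve cells, 8.32 and 8.19 in GFP Recurred cells, and 8.53 and 8.50 in GFP Naïve cells.

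Markers of other cell types moved with Cre Recurred cells in part. The 8 mesothelial markers, taken as the log2 of their mean linear signal, were at 6.57 and 5.97 in Cre Recurred cells, against 4.98 to 5.33 on the 6 other arrays, and 3 of the 8 had means above the median probe set. Msln (mesothelin), at 8.85 and 7.82 in Cre Recurred cells and 6.15 to 6.98 elsewhere, passed the study's thresholds against Cre Naïve cells (2.14, adjusted p = 0.13), GFP Recurred cells (1.71, adjusted p = 0.073) and GFP Naïve cells (1.49, adjusted p = 0.18). Krt7, a keratin, read 4.64 and 4.78 in Cre Recurred cells, 4.04 and 3.87 in Cre Naïve cells, 3.73 and 3.65 in GFP Recurred cells, and 3.79 and 3.88 in GFP Naïve cells. It passed in the same 3 comparisons (0.76, 1.02 and 0.88, adjusted p = 0.15, 0.036 and 0.08), at the stricter threshold against GFP Recurred cells. Krt19, at 7.23 and 6.26 in Cre Recurred cells, 4.48 and 6.11 in Cre Naïve cells, 4.86 and 4.71 in GFP Recurred cells, and 5.37 and 4.56 in GFP Naïve cells, passed against GFP Recurred cells (1.97, adjusted p = 0.15). Wt1 went the other way, at 4.30 and 5.96 in Cre Recurred cells, 5.83 and 5.96 in Cre Naïve cells, and 5.19 and 5.87 in GFP Recurred cells. Its log2 difference was -0.77 against Cre Naïve cells (limma, adjusted p = 0.65) and -0.40 against GFP Recurred cells (adjusted p = 0.82). Krt8 had 0.56 against Cre Naïve cells (adjusted p = 0.33) and passed no threshold. The mesothelial markers Upk3b, at 3.85 to 4.14, Upk1b, at 5.11 to 5.50, and Lrrn4, at 2.71 to 2.99, stayed nearly level on all arrays. The 4 measured markers of Schwann cells and melanocytes were at 6.13 and 6.29 in Cre Recurred cells, 8.03 and 6.31 in Cre Naïve cells, 7.74 and 7.49 in GFP Recurred cells, and 6.84 and 6.80 in GFP Naïve cells. Most of that sum was Mitf, and, as with Ddx4, the second Cre Naïve array was close to the Cre Recurred arrays. The Mitf difference against Cre Naïve cells was -1.23 (adjusted p = 0.45), and -2.26 without that array. Endothelial markers stayed at 4.29 to 4.43 and epithelial ones at 4.55 to 5.07. The part of these markers in the Dppa2 and Ddx4 signals was not tested, and in mixed populations a change in the share of cells and a change in RNA per cell cannot be told apart.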

How the data were processed

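The study ran Affymetrix Mouse Genome arrays on 4 populations of p53DD mouse adult fibroblasts, 2 arrays each. The authors deposited log2 signals made with RMA (background correction, quantile normalization and summary per probe set). The RMA software is not given in the sources used here, and scanner files were left aside. Control probe sets (64 of 45101) were removed, which left 45037. Symbols came from the array annotation, and gene order, chromosomes and promoter windows from RefSeq (GRCm38.p6).

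All 8 arrays entered 1 fit in limma (version 3.58.1, R version 4.3.3), with 1 mean per population, 4 residual and 3.07 prior degrees of freedom, and Benjamini-Hochberg adjustment over 45037 probe sets. The study's thresholds were 1.5-fold and an FDR under 25%, and a stricter one required an adjusted p under 0.05. "Rose" and "fell" are used of the stricter one. With 2 arrays against 2, exact permutation reaches no p below 0.333, so it was not used for p values. The SAM-type statistic took its null from the other even splits of the compared arrays. These are few, so its FDR is coarse. The code was tested on simulated data. Alternatives were a SAM-type statistic after the study's method (not for the interaction), a trended and robust prior, a fit of the compared populations alone, median centring, cyclic loess, the replicate number as a block, removal of dim probe sets (22518 above the median mean were kept) or of those with shared-probe suffixes (40508 were kept), and leaving out each array. With an array left out, its partner is assumed to vary like the other populations. The number of arrays limits the precision.

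Members and lists were chosen with earlier results of these data known. Named were the members, the 20 genes nearest Dppa2, up to 4 genes per list with the smallest p against Cre Naïve cells at any probe set, the 5 genes most and 3 least like Dppa2, and Rb1. The Ddx4 neighbours, the Stag3 promoter, and Klf5, Tdrkh, Setdb1 and single cell type markers were chosen after their values were seen.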

Additional observations from a re-analysis of the deposited data

Results flagged for a closer look

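In 2 genes named above, the change with recurrence differed between Cre and GFP cells by the interaction test in limma, at the study's thresholds, which 0.4% of all probe sets passed and none at the stricter threshold. Stag3 had a log2 difference of -1.73 for recurrence in Cre cells and 0.80 in GFP cells, an interaction of -2.52 ± 0.37 (SE, adjusted p = 0.18). Its adjusted p was 0.32 without GFP Naïve replicate 1, 0.40 without GFP Recurred replicate 1, 0.81 without GFP Recurred replicate 2 and 0.56 without Cre Recurred replicate 1.

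Map3k1, a neighbour of Ddx4, had a log2 difference of -1.84 for recurrence in Cre cells and 0.26 in GFP cells, an interaction of -2.10 ± 0.33 (SE, adjusted p = 0.19). Leaving out Cre Naïve replicate 1 gave an adjusted p of 0.29, and leaving out GFP Naïve replicate 1 gave 0.32. The value was 0.60 without Cre Recurred replicate 1, and 0.63 or 0.81 without the first or the second GFP Recurred array.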

How the results depend on the processing

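Of 1158 member fold changes recomputed under alternatives, 1092 kept their call at the study's thresholds and moved within the replicate spread. Of the rest, 50 moved further, 7 lost and 9 gained a call, and 0 were counted as reversed. A change of sign alone, seen in 69 of the 1158, was not counted as a reversal. Ddx4 against Cre Naïve cells, for example, went from -1.92 to 0.02 without Cre Naïve replicate 1. Calls of Dppa2 in the interaction were not counted, so those lost with single arrays left out are not among the 7. Changes in the counts of called member probe sets were all due to Ddx4. In Cre Recurred against Cre Naïve cells, leaving out single arrays gave counts of 0 to 1 at either threshold, with 1 without Cre Naïve replicate 2. Against GFP Recurred cells, the count at the study's thresholds of 1 became 0 with a trended and robust prior and without dim probe sets, which removed all members, and 0 to 1 with single arrays left out. At the stricter threshold the 0 there became 1 with only the compared arrays and with the SAM-type statistic, and 0 to 1 with single arrays left out. Against GFP Naïve cells, the 0 at either threshold became 1 with only the compared arrays and with the SAM-type statistic, and 0 to 1 with single arrays left out. Leaving out single arrays gave 0 to 1 in Cre Naïve against GFP Naïve cells and in the interaction at the study's thresholds. Over the alternatives, list genes called in Cre Recurred against Cre Naïve cells numbered 0 to 2 for pluripotency and for repressors, 0 to 4 for germ cells and for meiosis, and 0 to 1 for the 2-cell stage. Over all probe sets, the number called in that comparison changed too, from 168 of 45037 with the SAM-type statistic to 558 with median centring. It varied further with single arrays left out, so these list counts have no single share beside them. Why these fits differed was not tested beyond the arrays named.

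The replicate numbers are only shared between populations, and differences between replicates correlated at -0.255 to 0.307. With the replicate block in the fit of all arrays, the count was 1 against GFP Recurred cells and 0 in every other comparison, and no call of the 9 tested genes changed. The stricter calls of Map3k1 (adjusted p = 0.064), Rab3c (0.053) and Stag3 (0.059) against GFP Recurred cells were lost under the block. Cre Recurred and GFP Naïve cells had the correlation of -0.255. On those 4 arrays the labelled replicate block called 1 member and 634 probe sets in all at the study's thresholds, and a crossed pairing, added after seeing the data, called 1 member and 2540 probe sets, and 1 member at the stricter threshold.

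Every member averaged below the median probe set, and for the 8 level genes signal over background limits what a level value can show.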
